A study of Homo sapiens with 12 samples.

Results

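PLAT, which encodes tissue plasminogen activator, was examined together with 8 other genes of the plasminogen activator system and its cell-surface partners. The 9 genes were PLAT, PLAU, PLAUR, SERPINB2, SERPINE2, PLGRKT, ANXA2, S100A10 and THBD, of 58735 genes in the count table. They were chosen by function around the large difference in PLAT between the miR-122-5p and control groups, so that contrast was in view when the list was drawn up. The values of PLAT are therefore given as a description with no test, and its p-value is left out. For the other 8 genes, adjusted p-values come from the test over all genes, and the list as a whole supports no statement beyond its counts. All 9 passed the filter on low counts, as did 15471 genes in all.

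The cells were THP-1 macrophages, from an established human monocytic leukaemia cell line. In the miR-122-5p group they were transfected with miR-122-5p mimics, synthetic copies of that microRNA, at 30 nM using RNAimax. The control group received control miRNA mimics instead. After 24 h the cells of both groups were rested and given LPS (lipopolysaccharide, a bacterial cell wall component) for 4 h, so every library comes from transfected, LPS-stimulated cells of a single line. There were 6 libraries in each group, with 29473750 to 35684464 counts per library with miR-122-5p and 31019890 to 39468157 with the control mimic. Nothing in the labels says that the 6 were separate cultures, so the spread that p-values rest on may be technical.

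Plasminogen is a circulating proenzyme that is cut to plasmin, the protease that dissolves fibrin and also cleaves matrix proteins and some growth factors. Tissue plasminogen activator acts mainly on fibrin, whereas urokinase, the product of PLAU, acts at the cell surface through its receptor, encoded by PLAUR. Serpins block the activators by trapping them, and surface proteins with C-terminal lysines hold plasminogen where it can be activated. Macrophages are known for urokinase, its receptor and the serpin encoded by SERPINB2, while tissue plasminogen activator and thrombomodulin (THBD) are best known from endothelium.

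A microRNA recognises its targets mainly through its seed, bases 2 to 8 from the 5′ end. The mature sequence of miR-122-5p from RefSeq (GRCh38.p14) is shown first because the transfected mimic carries it, with the seed in capitals. The only matches to at least bases 2 to 7 of it in the annotated 3′ UTRs of the 9 genes were in PLAT and PLAU. Both sites of PLAU are shown as RNA-sense DNA from GENCODE 29 transcripts (GRCh38, plus strand), with the match to bases 2 to 7 in capitals; the 24-base windows lie at chr10:73917214-73917237 and chr10:73917390-73917413.
hsa-miR-122-5p: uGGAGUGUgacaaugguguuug
PLAU site 1: gaggttataggtCACTCCtggggc
PLAU site 2: tggggtgaggacCACTCCtgtaca

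These are 6mer matches, the weakest class counted: neither continues to base 8 of the microRNA, and neither is followed by A. PLAT also held a single 6mer, at base 538 of its longest 3′ UTR of 760 bases. The 3′ UTRs of the other 7 genes, of 248 to 2144 bases, held no match to the 6 bases CACTCC. In all, 36.9% of the 12874 tested genes with an annotated 3′ UTR held at least a 6mer and 13% had a 6mer as their strongest match. Only the sense strand of the 3′ UTR was searched. A match describes these letters and not a bound site.

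PLAT (chromosome 8, 42175233 to 42207724, minus strand) was at low levels in every control library and higher in every miR-122-5p library. The values, in CPM (counts relative to library size, scaled by TMM factors), ran from 2.71 to 4.34 with a median of 3.59 in the control libraries. With miR-122-5p they ran from 12.4 to 26.9 with a median of 22.6. The groups did not overlap, and the lowest miR-122-5p value, library 3, stood below the other 5, which lay at 19.9 CPM or more. The means were 21.2 ± 4.86 against 3.55 ± 0.638 CPM (SD, n = 6 in each group), a log2 fold change of 2.58 ± 0.16 (SE), or 5.98-fold. Raw counts of PLAT ran from 89 to 923, and no other annotated gene shares its exons. It ranked 5 among the rises of the 15471 tested genes. In bulk libraries such as these, a change in the share of cells that carry a transcript and a change in its amount per cell cannot be told apart.

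**Figure D1:**
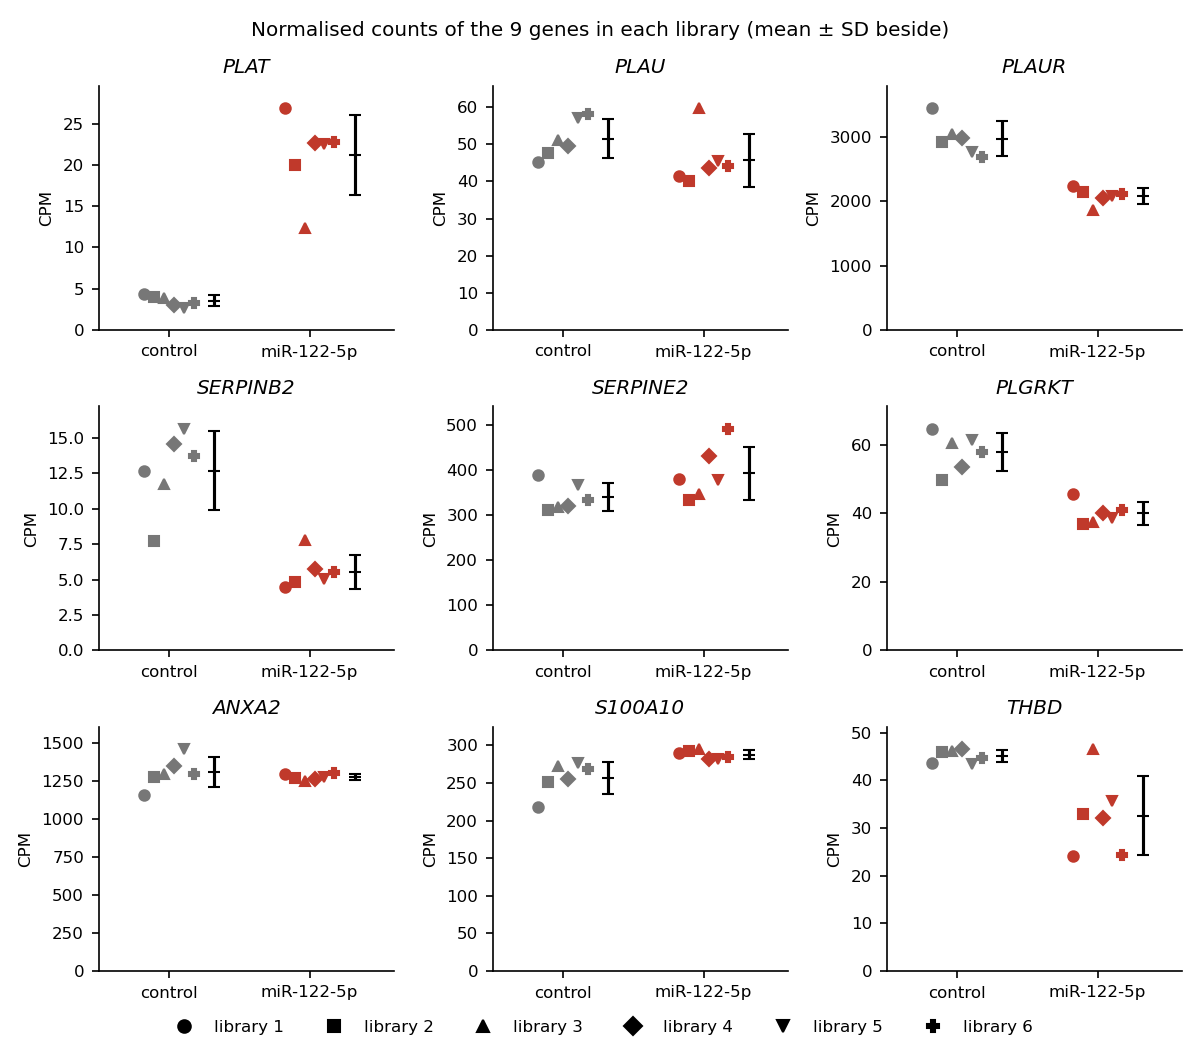
Normalised counts (CPM) of each of the 9 genes by library, with control libraries in grey and miR-122-5p libraries in red, a symbol per library number, and the mean ± SD (n = 6) as black bars. The 6 miR-122-5p values of PLAT (12.4 to 26.9 CPM) lie above all control values (2.71 to 4.34 CPM), and those of PLAUR and PLGRKT lie below theirs.

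PLAU (chromosome 10, 73909177 to 73917497, plus strand), the other activator, did not pass the test. Its control values ran from 45.1 to 58.3 CPM with a median of 50.4, and its miR-122-5p values from 40.0 to 59.7 with a median of 43.9. Of the miR-122-5p libraries 5 lay at or below 45.5 CPM, while library 3 held the highest value of either group. The log2 fold change was -0.17 ± 0.09 (adjusted p = 0.137). Without miR-122-5p library 3 it was -0.26 ± 0.08 and passed the threshold (adjusted p = 0.0120), as it did with composition offsets (-0.26, adjusted p = 0.0264). Composition offsets here take each library's trends on transcript GC content and length out of the model; a GC term instead enters the GC trend of each library into the model as a number. Exons of C10orf55, on the opposite strand, cover 31.0% of the exons of PLAU, and C10orf55 itself was counted at 0.914 ± 0.142 against 0.581 ± 0.192 CPM (SD, n = 6).

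Set per kilobase of annotated exon, so that genes can be compared, the level of PLAU was 17.5 ± 1.77 CPM per kilobase in the control group and that of PLAT 0.536 ± 0.096 (SD, n = 6). With miR-122-5p the levels were 15.5 ± 2.42 and 3.20 ± 0.735. The ratio of PLAU to PLAT was 33.9 ± 9.10 across control libraries and 5.33 ± 2.73 across miR-122-5p libraries, with ranges of 23.3 to 47.4 and 3.46 to 10.8. PLAT accordingly made up 3.03 ± 0.776% of the summed level of these activators in control libraries and 17.4 ± 4.69% with miR-122-5p. Urokinase transcripts thus outnumbered those of PLAT in all 12 libraries. These ratios contain the PLAT values that led to the choice of genes and are a description. They also depend on the length used. Per kilobase of the longest transcript, mean levels of PLAU and PLAT were 19.4 and 1.025 CPM in the control group. With miR-122-5p they were 17.2 and 6.12, so PLAT made up a larger share by that length in both groups.

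PLAUR (chromosome 19, 43646095 to 43670547, minus strand), the urokinase receptor, was the most abundant of the 9 genes and fell with miR-122-5p. Control values ran from 2686 to 3447 CPM with a median of 2950, and miR-122-5p values from 1867 to 2236 with a median of 2098. The groups did not overlap, and library 3 was the lowest of the miR-122-5p group. The log2 fold change was -0.51 ± 0.07 (adjusted p = 1.49e-06), and the call held in all 22 alternative settings, between -0.69 and -0.47.

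The serpins among the 9 genes differed in direction. SERPINB2 (chromosome 18, 63871692 to 63903890, plus strand) encodes plasminogen activator inhibitor type 2, which inhibits urokinase and is largely kept inside the cell. Its control values ran from 7.73 to 15.7 CPM with a median of 13.2, and its miR-122-5p values from 4.45 to 7.82 with a median of 5.29. Control library 2 and miR-122-5p library 3 met at 7.73 and 7.82 CPM, and no other values overlapped. SERPINB2 fell by 1.19 ± 0.16 on the log2 scale (adjusted p = 1.91e-06), or 2.28-fold. SERPINB10 covers 19.9% of its exons on the same strand but had 0 counts in all miR-122-5p libraries and at most 0.273 CPM in a control library.

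SERPINE2 (chromosome 2, 223975112 to 224039319, minus strand) encodes protease nexin 1, a serpin that inhibits thrombin, urokinase and tissue plasminogen activator. It ran from 312.3 to 389.3 CPM (median 326.7) in control libraries and from 333.7 to 491.5 (median 378.3) with miR-122-5p. The groups overlapped, and libraries 4 and 6 of the miR-122-5p group held the highest values. Its log2 fold change of 0.21 ± 0.09 missed the threshold (adjusted p = 0.0517). The direction was the same in all 22 alternative settings. SERPINE2 stood at 0.48 ± 0.07 under composition offsets (adjusted p = 3.13e-06) and at 0.58 ± 0.12 with the GC term (adjusted p = 0.00121). In 11 of the 22 settings it passed the threshold. Leaving out miR-122-5p library 2 or 3 or control library 1 or 5 was enough to pass it (0.23 to 0.26, adjusted p = 0.0155 to 0.0445).

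Ordered by level per kilobase in the control group, the genes ran PLAUR (667.4 ± 60.2), S100A10 (166.4 ± 13.7), ANXA2 (147.8 ± 11.2), PLGRKT (38.8 ± 3.68), SERPINE2 (38.3 ± 3.51), PLAU (17.5 ± 1.77), THBD (10.97 ± 0.326), SERPINB2 (4.62 ± 1.02) and PLAT (0.536 ± 0.096 CPM per kilobase, SD, n = 6). The genes for PLAUR and the plasminogen-binding proteins thus stood above both activators. PLGRKT and SERPINE2 differed by less than their spread, and S100A10 and ANXA2 exchanged places when the longest transcript was taken as the length. With miR-122-5p, PLAT (3.20 ± 0.735) stood above SERPINB2 (2.03 ± 0.436) on average and in 5 of the 6 libraries; in library 3 the order was the reverse (1.87 against 2.85).

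**Figure D2:**
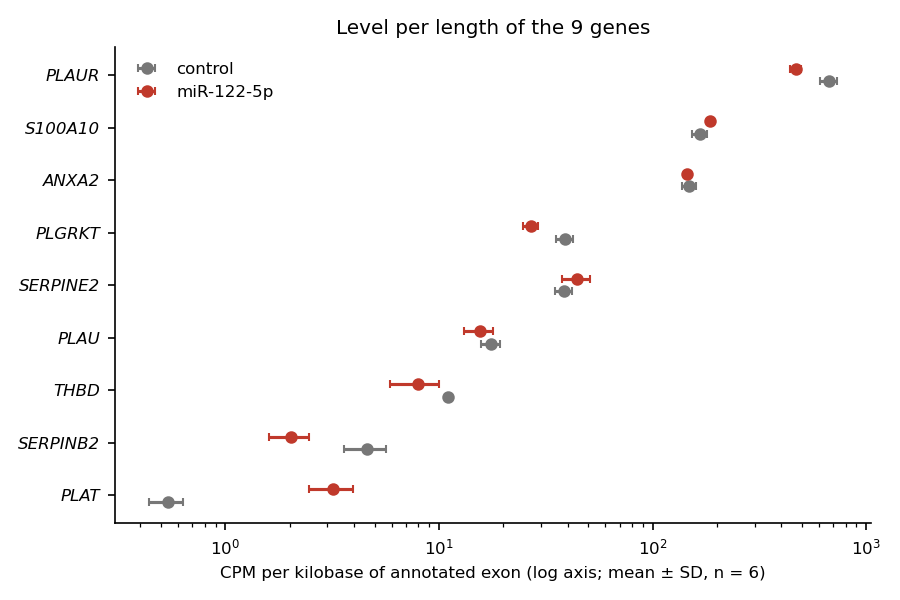
Level of each gene per kilobase of annotated exon (log axis; mean ± SD, n = 6) in control (grey) and miR-122-5p (red) libraries. PLAT is lowest of the 9 genes in the control group, at 0.536, and its mean lies above that of SERPINB2 with miR-122-5p, at 3.20 against 2.03.

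Of the genes for surface proteins that hold plasminogen, PLGRKT was lower, S100A10 slightly higher and ANXA2 did not pass the test. PLGRKT (chromosome 9, 5357973 to 5437878, minus strand) encodes a plasminogen receptor with a C-terminal lysine. Its 6 control values, 49.8 to 64.8 CPM with a median of 59.2, lay above all 6 miR-122-5p values, 36.8 to 45.8 with a median of 39.4. PLGRKT fell by 0.54 ± 0.08 on the log2 scale (adjusted p = 7.15e-06).

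ANXA2 (chromosome 15, 60347134 to 60402883, minus strand) encodes annexin A2, and S100A10 (chromosome 1, 151982915 to 151994390, minus strand) encodes p11, its partner in a complex that binds plasminogen and tissue plasminogen activator. ANXA2 ran from 1155 to 1457 CPM (median 1294) in control libraries and from 1250 to 1301 (median 1272) with miR-122-5p. The miR-122-5p values lay inside the control range, and the log2 fold change was -0.03 ± 0.06 (adjusted p = 0.686). S100A10 ran from 218.6 to 276.3 CPM (median 261.4) and from 281.6 to 294.9 (median 287.5), without overlap. It was called higher by a small margin, 0.16 ± 0.06 (adjusted p = 0.0371).

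The S100A10 call ended in 12 of 22 alternative settings, among them composition offsets, which turned its direction (-0.035, adjusted p = 0.659). Leaving out control library 1, 2 or 4 or miR-122-5p library 1, 2, 3 or 5 also ended it (0.12 to 0.17, adjusted p = 0.0511 to 0.0706). These offsets also turned ANXA2, which was then called higher (0.16 ± 0.06, adjusted p = 0.0207). The ratio of ANXA2 to S100A10 level per kilobase was 0.890 ± 0.042 in control libraries and 0.775 ± 0.021 with miR-122-5p (SD, n = 6), and its ranges did not overlap (0.834 to 0.925 and 0.742 to 0.798). That ratio was taken without composition offsets. With them the log2 fold change of ANXA2 (0.16) lay above that of S100A10 (-0.035), so the direction of the ratio depends on the processing. Reads of ANXA2 can be shared with near-identical pseudogenes, of which ANXA2P2 was counted at 83.6 ± 5.61 against 94.0 ± 5.33 CPM (SD, n = 6; log2 fold change -0.17 ± 0.07, adjusted p = 0.0382). ANXA2P1 was at 0.183 against 0.225 CPM and ANXA2P3 had 0 counts, so the annexin value is less certain than the others.

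THBD (chromosome 20, 23045633 to 23049741, minus strand) encodes thrombomodulin, the thrombin receptor that turns thrombin toward activating protein C and a carboxypeptidase that protects fibrin. Control values lay close together, from 43.5 to 46.5 CPM with a median of 45.3. The miR-122-5p values were spread from 24.2 to 46.5 with a median of 32.5, and library 3 alone reached the control values. THBD fell by 0.47 ± 0.12 on the log2 scale (adjusted p = 0.00241), and by 0.60 ± 0.10 without that library (adjusted p = 5.11e-05).

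Of the 8 genes other than PLAT, 1 was called higher (S100A10), 4 were called lower (PLAUR, SERPINB2, PLGRKT and THBD) and 3 did not pass. Among all tested genes 50.5% were called, 24.3% higher and 26.2% lower, so a count of 5 in 8 is read against that share and nothing is drawn from it. The median log2 fold change of the 9, PLAT included, was -0.17, against 0.01 over all tested genes. Besides PLAT, values of the groups did not overlap for PLAUR, PLGRKT and S100A10; over all tested genes the share without overlap was 29.5%.

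Base composition moved with the groups across the whole table and touches these values. The slope of each library's log2 CPM on transcript GC content, per 10 percentage points, was 0.0336 to 0.229 in miR-122-5p libraries and -0.318 to 0.0119 in control libraries. SERPINB2, SERPINE2 and PLGRKT, with 41.0% GC in the longest transcript, lie in the lowest of 5 equal bins of GC content, where 46.4% of genes were called lower and 6.5% higher. PLAT (45.6%) and ANXA2 (44.0%) lie in the next bin, with 34.8% lower and 11.9% higher. PLAU, PLAUR, S100A10 and THBD (54.0 to 56.2%) lie in the fourth bin, with 16.4% lower and 33.2% higher. Of the called genes, SERPINB2, PLGRKT and S100A10 changed in the more frequent direction of their bins. PLAUR and THBD changed in the less frequent one, as did PLAT. Whether base composition caused any of these changes was not tested.

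With composition offsets PLAT stood at 2.73 ± 0.16, PLAUR at -0.69 ± 0.07, SERPINB2 at -0.93 ± 0.14, PLGRKT at -0.33 ± 0.06 and THBD at -0.57 ± 0.11 on the log2 scale. The last 4 stayed past the threshold. With the GC term, PLAT was at 2.50 ± 0.29 and PLAUR at -0.47 ± 0.11 (adjusted p = 0.00412). The GC term ended the calls of SERPINB2 (-0.69, adjusted p = 0.0783), PLGRKT (-0.34, adjusted p = 0.0589) and THBD (-0.57, adjusted p = 0.0719). The GC slopes of the groups did not overlap, so composition offsets, here and elsewhere, also take out group differences that follow GC content. For the same reason the GC term, here and below, cannot be fully told apart from the group itself. It also widened the SE, to 0.27 from 0.16 for SERPINB2 and to 0.13 from 0.08 for PLGRKT. The change of THBD was no smaller than before, while its SE was larger (0.22 against 0.12). The GC term lowered the calls over all genes to 1118 higher and 1887 lower (37.2% higher, against 48.1% of 7810 without it).

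**Figure D3:**
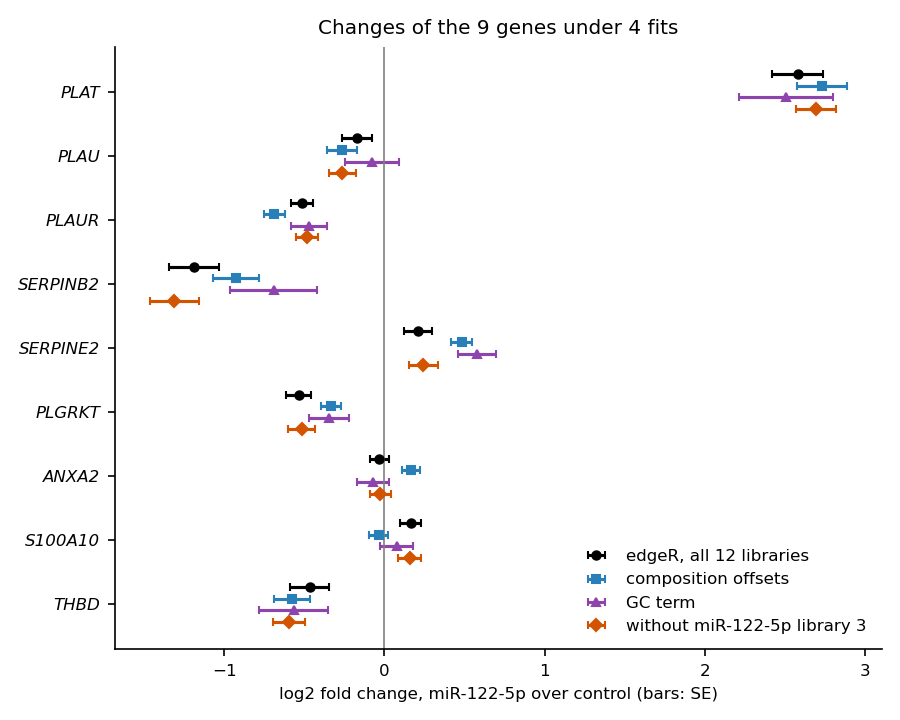
Log2 fold change, miR-122-5p over control, of the 9 genes (bars: SE) in the fit of all 12 libraries (black), with composition offsets (blue), with the GC term (purple) and without miR-122-5p library 3 (orange). PLAT lies between 2.50 and 2.73 in these 4 fits, PLAUR between -0.69 and -0.47, and S100A10 and ANXA2 change sign with composition offsets.

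Library 3 of the miR-122-5p group lay nearest to the control values for PLAT, SERPINB2 and THBD, and its PLAU value lay above them. On a scale where the control mean is 0 and the mean of the other miR-122-5p libraries is 1, it stood at 0.671 for PLAT and 0.519 for SERPINB2. Over the 1445 genes called with at least a 2-fold change it stood at 1.01 on the same scale, within the 0.894 to 1.07 of the other miR-122-5p libraries. Control library 2 stood at 0.622 for SERPINB2 and at 0.116 over the 1445 genes. The 1445 genes were chosen in the fit of all 12 libraries, library 3 included, which favours values near 1 for every miR-122-5p library. Their value for library 3 therefore cannot show that it was otherwise typical. This comparison was made after the values were seen.

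Some of the 9 genes also varied together within the groups. With the mean of each group removed, the correlation of log2 CPM over the 12 libraries was -0.83 between PLAT and PLAU, -0.75 between PLAT and SERPINB2, -0.69 between PLAT and THBD and 0.75 between PLAT and PLAUR. PLAU and PLAUR were at -0.85, and ANXA2 and S100A10 at 0.78. Without miR-122-5p library 3 (11 libraries), the first 4 values were -0.58, -0.62, -0.27 and 0.68, and that of PLAU and PLAUR was -0.84. These are descriptions over few points that share library, depth and base composition. With the group means kept, PLAT and PLAUR were at -0.84, so their relation within groups had the opposite sign to that between groups.

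**Figure D4:**
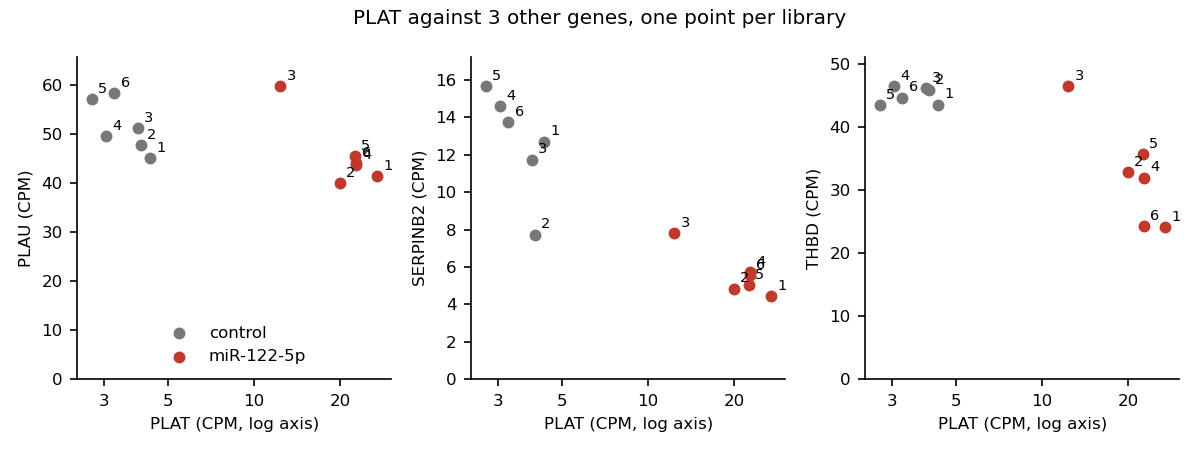
PLAT (CPM, log axis) against PLAU, SERPINB2 and THBD (CPM), with 1 point per library, labelled by library number, in grey for control and red for miR-122-5p. Library 3 of the miR-122-5p group, at 12.4 CPM of PLAT, carries the highest PLAU, SERPINB2 and THBD values of its group (59.7, 7.82 and 46.5 CPM).

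Likeness to PLAT was ranked over 8335 genes, those at or above 3 in mean log2 CPM. The genes whose log2 CPM was most like that of PLAT over the 12 libraries after removal of group means were NCK2 (Pearson's r = 0.896), POLL (0.880), TRAF1 (0.864), PDLIM1 (0.857) and CTSH (0.856). NCK2 encodes an SH2/SH3 adaptor, TRAF1 an adaptor of TNF receptors and CTSH a lysosomal protease. Over all ranked genes the median of this correlation was 0.02 and the 95th percentile 0.54. With group means kept, the closest were NCK2 (0.988), RPL3 (0.987), MAPKAP1 (0.986), DUSP2 (0.985) and PMEPA1 (0.984), which mostly restates that they were higher with miR-122-5p. The same libraries enter every value.

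Other genes of the plasminogen system were taken from a list of 23, of which 16 passed the filter. Of these, 8 were called higher, 5 lower and 3 did not pass, beside 50.5% of all tested genes called (24.3% higher, 26.2% lower). The median log2 fold change was 0.15, against 0.01 over all tested genes. PLG itself, which encodes plasminogen, had 0 counts in all 12 libraries, which allows up to 0.0760 to 0.102 CPM per library (3 counts; counting error only). VTN, for vitronectin, and HABP2, for a plasma protease that can activate urokinase, also had 0 counts. The system in these cells is therefore described by its activators, inhibitors and receptors, without detected transcripts of the zymogen.

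The protease inhibitor genes SERPING1 and A2M fell. SERPING1, for C1 inhibitor, which blocks complement and contact proteases and plasmin, changed by -3.46 ± 0.11 (21.6 ± 3.96 against 237.8 ± 18.2 CPM, SD, n = 6; adjusted p = 4.41e-16). A2M, for the broad protease trap alpha-2-macroglobulin, changed by -0.43 ± 0.07. Genes for clearance receptors rose: LRP1, the endocytic receptor that takes up complexes of activators and serpins, by 0.72 ± 0.10, its chaperone LRPAP1 by 0.39 ± 0.07 and MRC2, a collagen receptor associated with the urokinase receptor, by 0.63 ± 0.10. The GC term ended the calls of LRP1 (0.40, adjusted p = 0.0709), LRPAP1 (0.25, adjusted p = 0.158) and MRC2 (0.033, adjusted p = 0.874).

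Of the integrin genes on the list, only ITGB3 fell. ITGB2 and ITGAM, the chains of the macrophage integrin Mac-1, rose by 0.35 ± 0.06 and 0.19 ± 0.06. Neither call held with composition offsets (0.077, adjusted p = 0.307, and 0.11, adjusted p = 0.0736) or with the GC term (0.22, adjusted p = 0.150, and -0.009, adjusted p = 0.962). ITGB3 changed by -0.79 ± 0.09, but another gene overlaps 51.6% of its exons. ITGB1 was called higher (0.16 ± 0.06, adjusted p = 0.0303). Its call ended with the GC term (0.25, adjusted p = 0.0698). Leaving out miR-122-5p library 5 or 6 or control library 2 or 4 also ended it (adjusted p = 0.0533 to 0.0783). ITGAV did not pass (0.14 ± 0.08, adjusted p = 0.138). With composition offsets ITGB1 (0.45) and ITGAV (0.48) were both called higher, as was ITGAV with the GC term (0.54). The formyl peptide receptor genes FPR2 and FPR1 fell by 2.55 ± 0.56 and 2.40 ± 0.59 from low levels (FPR2 ran from 0.732 to 1.30 CPM in control libraries and reached at most 0.504 with miR-122-5p), and the GC term ended both calls (adjusted p = 0.0778 and 0.163). ENO1, for enolase, a glycolytic enzyme that binds plasminogen at the surface, had a log2 fold change of 0.14 ± 0.06 and did not pass (adjusted p = 0.0607); it did pass with DESeq2 (adjusted p = 0.0301), with limma-voom (adjusted p = 0.0444) and when control library 1, control library 2 or miR-122-5p library 3 was left out (adjusted p = 0.0272 to 0.0494).

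**Figure D5:**
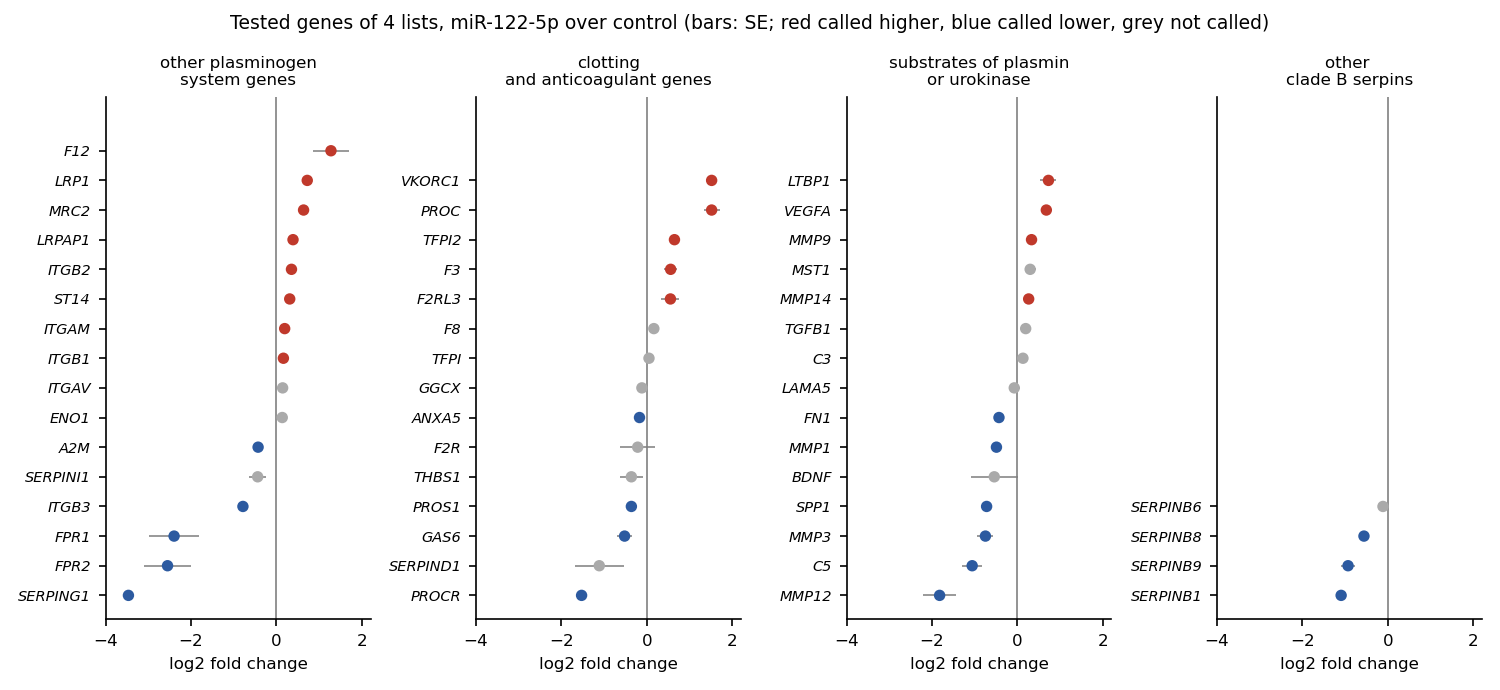
Log2 fold change, miR-122-5p over control, with SE bars for the tested genes of 4 lists; red points were called higher, blue lower and grey not called. SERPING1, at -3.46, is the largest fall of the plasminogen system list, while PROCR, at -1.53, is the lowest of the clotting and anticoagulant genes.

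Clotting and anticoagulant genes, with which THBD works, numbered 15 tested of 24; 5 were called higher, 4 lower and 6 did not pass (median log2 fold change -0.12). Over all tested genes 24.3% were higher and 26.2% lower (median 0.01). PROCR (chromosome 20, 35172073 to 35216240), for the protein C receptor that presents protein C to thrombomodulin, ran from 73.1 to 85.8 CPM in control libraries and from 23.4 to 30.0 with miR-122-5p. PROCR fell by 1.53 ± 0.07 (adjusted p = 6.46e-13). PROC, for protein C, rose by 1.51 ± 0.19 from a low level (3.86 ± 1.11 to 11.1 ± 2.64 CPM, SD, n = 6), and its call ended with the GC term (0.74, adjusted p = 0.133). PROS1, for the cofactor protein S, changed by -0.36 ± 0.07, with its call ended by composition offsets (-0.087, adjusted p = 0.246) and by the GC term (-0.21, adjusted p = 0.198).

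F3, for tissue factor, which starts clotting, was called higher by 0.55 ± 0.15 (232.0 ± 20.1 against 158.0 ± 53.1 CPM), a call that the GC term ended (0.61, adjusted p = 0.146). TFPI2, for a Kunitz inhibitor of plasmin and other proteases, rose by 0.64 ± 0.08. GAS6, a relative of protein S, changed by -0.52 ± 0.17, and ANXA5, for an annexin that covers phosphatidylserine, by -0.17 ± 0.07. The GAS6 call ended with the GC term (adjusted p = 0.0832), and the small ANXA5 change turned sign with it (0.065, adjusted p = 0.715). Leaving out control library 4, 5 or 6 or miR-122-5p library 1, 2, 4 or 5 likewise ended the ANXA5 call (adjusted p = 0.0514 to 0.0916). VKORC1, for the vitamin K epoxide reductase, was higher by 1.51 ± 0.11, but other genes cover 74.5% of its exons.

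Genes for proteins that plasmin or urokinase are known to cleave were tested for 15 of 20, with 4 called higher, 6 lower and 5 not called (median -0.08), where all tested genes had 24.3% higher and 26.2% lower. The falls included SPP1, for osteopontin (-0.72 ± 0.06), FN1, for fibronectin (-0.43 ± 0.09), C5 (-1.06 ± 0.23) and the metalloproteinase genes MMP3 (-0.75 ± 0.19) and MMP12 (-1.82 ± 0.38). MMP12 was near the limit of detection, at 0.369 with miR-122-5p against 1.31 CPM in controls. C5 was also at a low level, at 1.11 against 2.32 CPM. The rises included VEGFA (0.67 ± 0.10), LTBP1, which tethers latent TGF-beta (0.72 ± 0.19), and MMP9 (0.33 ± 0.07). MMP9 turned sign with composition offsets (-0.038, adjusted p = 0.520) and with the GC term (-0.045, adjusted p = 0.771). The FN1 call ended with the offsets (adjusted p = 0.123), and those of MMP3, MMP12, VEGFA and LTBP1 ended with the GC term (adjusted p = 0.617, 0.0788, 0.0884 and 0.739).

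SERPINB2 belongs to the clade B serpins, which lack a classical signal peptide. Of the other 12 genes of the clade on the list, 4 passed the filter, and 3 of these were lower: SERPINB1, for an inhibitor of neutrophil elastase, by -1.10 ± 0.10, SERPINB8 by -0.56 ± 0.10 and SERPINB9, for the granzyme B inhibitor, by -0.93 ± 0.16. SERPINB6 was at -0.12 ± 0.08 (adjusted p = 0.217). The share called lower over all tested genes was 26.2%. The calls of SERPINB8 and SERPINB9 ended with the GC term (-0.16, adjusted p = 0.476, and -0.35, adjusted p = 0.355).

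The labelled cell type was compared with marker genes. Over all tested genes 24.3% were called higher and 26.2% lower (median log2 fold change 0.01). Of 12 macrophage markers 10 passed the filter, with 6 called lower, 2 higher and 2 that did not pass (median -0.37). The lower ones were MSR1 (-2.29 ± 0.11), CD163 (-0.81 ± 0.11), AIF1 (-0.47 ± 0.09), CD14 (-0.39 ± 0.09), FCER1G (-0.38 ± 0.07) and CSF1R (-0.36 ± 0.07), and the higher ones TYROBP (0.30 ± 0.08) and CEBPB (0.34 ± 0.09). CSF1R was at 443.6 ± 28.1 against 569.1 ± 47.6 CPM (SD, n = 6) and MSR1 at 21.2 ± 4.29 against 103.5 ± 7.69. The summed level of the 12 ran from 2810 to 3340 CPM with miR-122-5p and from 2690 to 3190 in controls. MRC1 was at or near 0, as was CD68, 85.8% of whose exons are shared with other genes. Since PLAT and THBD are also endothelial genes, 11 endothelial markers were read beside them: 6 did not reach 1 CPM in any library, among them CDH5, KDR, CLDN5 and EMCN. The summed level of the 11 ran from 546.0 to 621.0 CPM with miR-122-5p and from 433.0 to 502.0 in controls, most of it from PECAM1 and TIE1. Of these, PECAM1 did not pass (0.08 ± 0.06, adjusted p = 0.281), at 254.9 against 241.0 CPM, while TIE1 was at 302.4 against 214.5 CPM. Of the 7 that were tested, 4 were called higher and 3 did not pass (median log2 fold change 0.42), beside 24.3% called higher over all tested genes. The 4 were TIE1 (0.50 ± 0.08), VWF (0.42 ± 0.11), ESAM (0.89 ± 0.18) and TEK (1.09 ± 0.41). TIE1 (60.8% GC) and VWF (58.5%) lie in the highest of the 5 bins of GC content, where 50.8% of genes were called higher. ESAM (53.9%) lies in the fourth bin, with 33.2% higher, and TEK (45.1%) in the second, with 11.9%. TEK was near the limit of detection, at 0.606 against 0.283 CPM and under 1 CPM in every library. Calls of the marker genes were not examined in the alternative settings. The part of the macrophage and endothelial markers in the PLAT and THBD values was not tested.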

How the data were processed

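Whole-transcriptome counts of 12 libraries, 6 per group, were used. The authors deposited unnormalized read counts for each gene. HISAT2 2.0.5 and featureCounts 1.5.0-p3 appear in the submitters' processing notes, as does hg38; the strand setting is not given in the sources used here. Control columns were matched to samples by name and number. Symbols, coordinates, exon lengths and 3′ UTRs came from GENCODE 29, in which all 9 genes were found. In R 4.3.3, filterByExpr kept 15471 genes, and groups were compared with edgeR 4.0.16 (TMM, quasi-likelihood test, Benjamini-Hochberg over all tested genes, threshold 0.05). On simulated data with 50 planted changes of each size, this test recovered 50% at 0.5 on the log2 scale, 78% at 1 and 98% at 2. False calls numbered 17. The simulated libraries held no trend on GC content, so they cannot check calls against such a trend. No 2 libraries of a group agreed within sampling noise (chi-square 7.89 to 73.3 per degree of freedom). log2 CPM used a prior count of 2. Alternatives used DESeq2 1.42.0, limma 3.58.1 (voom), other scalings and filters, a replicate block, composition offsets (splines on GC content and length, 4 degrees of freedom), a GC term (the GC slope of each library as a covariate), each library left out and a threshold of 0.01.

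The members and lists were chosen with earlier results of these data known. Named were the 9 genes, copies and exon-overlapping genes, per list the called genes of smallest p (up to 8), ENO1, ITGAM, ITGB2, and the 5 genes most like PLAT in each ranking. Other names, such as SERPINB6, ITGB1, ITGAV, PLG or marker genes, were chosen after their values were seen. A gene of the plasminogen system list is not reported here and was left out of that list's counts.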

Additional observations from a re-analysis of the deposited data

Results flagged for a closer look

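In 25 groups of 6 CPM values (the 9 genes, pseudogene copies and exon-overlapping genes), 3 held a library far from the other 5; chance gives about 1 in 20. PLAU stood at 59.7 CPM in miR-122-5p library 3, where the other 5 libraries lay between 40.0 and 45.5. ANXA2P1 stood at 0.347 CPM in control library 1, and SERPINB10 at 0.273 CPM in control library 6, with 0 counts in the other control libraries; both are near the limit of detection.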

How the results depend on the processing

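Of 198 refits of the 9 genes (22 settings each), 167 kept direction and side of the threshold, 14 lost and 13 gained a call, and 4 turned: ANXA2 (0.16) and S100A10 (-0.035) with composition offsets, and ANXA2, uncalled, with library totals (0.010) and without control library 5 (0.002; -0.065 to 0.002 with any library left out). PLAT ran from 2.50 to 2.73. Its 22 refits are all among the 167, and they are a description because PLAT was chosen for its rise. The GC term gave 1118 genes higher and 1887 lower. Among the 9, it left 1 lower (PLAUR) and 2 higher (PLAT and SERPINE2, the latter a gained call). This term ended the call of S100A10 (0.076, adjusted p = 0.685). With it, the plasminogen system list had 1 higher and 3 lower, clotting genes 2 higher and 1 lower, clade B serpins 1 lower, and substrates 0 higher by edgeR (1 at an unadjusted p under 0.05). Composition offsets left 5 plasminogen system genes higher, 2 clotting genes lower and 2 substrates higher. The 1 CPM filter left 3 plasminogen system genes lower, and the 0.01 threshold 5 of them higher, 2 clotting genes lower and 1 of the 9 genes higher. With any 1 library left out, 1 to 3 of the 9 were called higher. PLAT is among the genes called higher in every setting, so these counts of the 9 are no support for it. Over all settings the adjusted p ran from 0.0120 to 0.812 for PLAU, 8.07e-12 to 0.00412 for PLAUR, 1.37e-16 to 0.0783 for SERPINB2, 3.13e-06 to 0.167 for SERPINE2, 1.02e-09 to 0.0589 for PLGRKT, 0.0207 to 0.981 for ANXA2, 0.00976 to 0.685 for S100A10 and 6.55e-06 to 0.0719 for THBD. Among the listed genes, composition offsets turned ST14 (-0.063), TGFB1 (-0.19), MMP9 (-0.038), GGCX (0.028), C3 (-0.022) and SERPINB6 (0.10); the GC term turned ST14 (-0.20), ITGAM (-0.009), ANXA5 (0.065), TGFB1 (-0.40), MMP1 (0.17), MMP9 (-0.045), MMP14 (-0.15), F2R (0.33), SERPIND1 (0.042), MST1 (-0.001) and C3 (-0.11). F2R also turned without control library 1 (0.10; -0.38 to 0.10 with any library left out) and TFPI without control library 6 (-0.008; -0.008 to 0.13). The cause was not tested. Libraries of the same number did not deviate together (correlations -0.105 to 0.066; 1 of 6 matched best its own number); with the replicate block 1 of the 9 was called higher, because S100A10 missed (adjusted p = 0.0534). Lengths of the longest transcript moved levels per kilobase of 8 genes and exchanged the order of S100A10 and ANXA2.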
